A study of Ciona robusta with 15 samples.

Results

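A set of 115 transcripts was low in all 3 non-regenerating pools of the oral siphon of Ciona robusta and higher in all 12 pools taken from day 0 to day 8 after amputation. They are 0.648% of the 17745 transcripts in the table. The members were chosen by their measured levels, in CPM, the counts of a library scaled to a common total, here with TMM (trimmed mean of M-values) factors over all rows. A transcript was taken when its highest non-regenerating value was at most 0.5 times its lowest in the 12 libraries of days 0 to 8. That lowest value also had to be at least 2 CPM. These 12 are called the later libraries here. The word does not place the non-regenerating pools in time, since the labels give no day for them. The limit of 300 members was not reached. The difference between the non-regenerating pools and the rest is therefore the choice itself and is described without a test.

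Ciona robusta is a solitary sea squirt, and its oral siphon is the tube through which seawater enters the pharynx. The siphon carries bands of circular muscle, sensory cells and pigmented organs at its rim, and it regrows when cut off. Regrowth is known to draw on dividing progenitor cells of the branchial sac as well as on local tissue.

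All animals were wild-type siblings of about 6 months, and each library was made from the polyadenylated RNA of 5 pooled siphon samples. By the labels the animals measured 5 to 10 cm, were put in 0.04% of the anaesthetic MS222 for 30 min and were kept at 15 °C in seawater during the time course, a description given alike for all groups. The 5 groups of 3 libraries are siphons labelled non-regenerating (NR), and siphons labelled as taken immediately (D0), 1 day (D1), 3 days (D3) and 8 days (D8) after amputation. The labels do not say how the non-regenerating siphons were handled differently from those of day 0. A value is the average of a pool, so the spread given here is between pools and not between animals.

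The transcripts carry Ensembl identifiers. Of the 17745, 0 were found in the reference table of 21486 RefSeq genes used here, so no member could be given a gene name, a function, a position or a sequence, and the lists of pathway genes and cell type markers could not be applied. The tissue label could not be checked against marker genes for the same reason.

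Libraries held 7039611 to 33413013 counts. Some were closest to a library of a different stage by Spearman correlation over the 15328 transcripts tested. Non-regenerating replicate 1 was nearest to day 8 replicate 2, day 1 replicate 3 also to day 8 replicate 2, day 8 replicate 3 to day 1 replicate 2, and day 3 replicate 3 to day 0 replicate 1. Day 1 replicate 2 and day 3 replicate 2 were nearest to day 8 replicate 3 and day 1 replicate 2. All libraries were kept under their labels, and the comparisons between days are given also without replicate 3 of days 1, 3 and 8, which hold 3 of the doubtful libraries. The TMM factors ran from 0.6652 to 0.7974 for the non-regenerating libraries and from 0.9395 to 1.209 for the others.

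The members ranged widely in abundance. Their mean over the 12 later libraries ran from 2.87 to 4586 CPM, with a median of 41.7 CPM, where the 11568 transcripts that reached 2 CPM in all 12 had a median of 20.03 CPM. Of the 115 members, 31 lay over 100 CPM, 65 between 10 and 100 CPM and 19 under 10 CPM. The share over 100 CPM was 27.0%, compared with 12.3% of the 11568.

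Counts behind the low side were small but rarely absent. In the 3 non-regenerating pools together a member held 15 to 13760 counts, with a median of 249. Only 3 members had 0 counts in a pool, all in replicate 3, the shallowest of that group. Fewer than 10 counts were held by 11 members in non-regenerating replicate 1, by 9 in replicate 2 and by 35 in replicate 3. The ratio of the mean of the 12 later libraries to the mean of the non-regenerating ones ran from 2.59 to 61.4, with a median of 7.92. It was 10 or more in 46 members, between 4 and 10 in 54 and under 4 in 15. In bulk tissue, fewer cells of a type and less RNA per cell cannot be told apart.

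**Figure D1:**
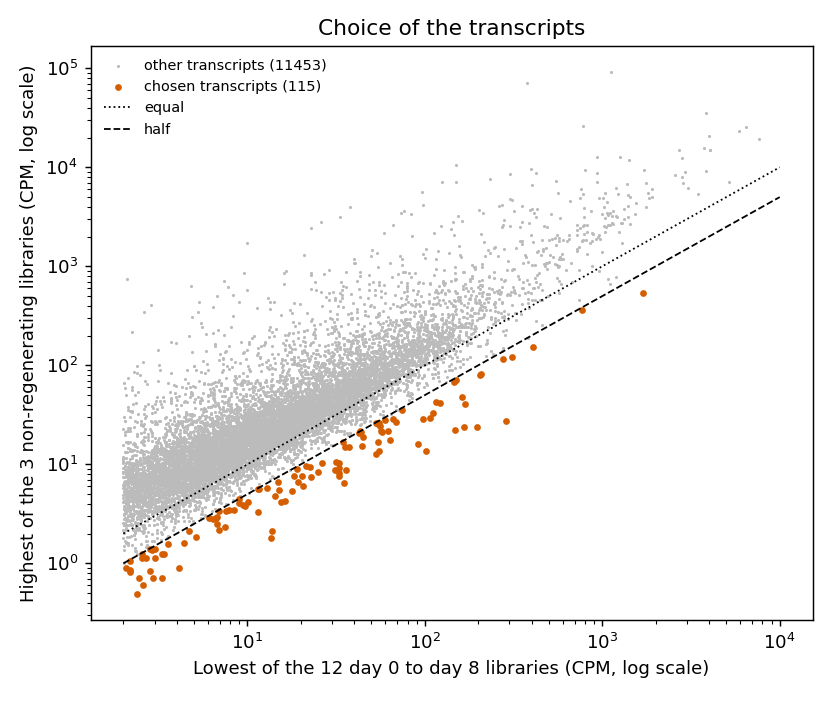
Each point is a transcript with at least 2 CPM in all 12 libraries of days 0 to 8, plotted by its lowest value there and by its highest value in the 3 non-regenerating libraries, both on log axes. The 115 chosen transcripts, in orange, lie below the dashed line that marks a factor of 2, and most of the others lie above the dotted line of equal values.

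Summed over the members, the level was 2534 CPM in non-regenerating replicate 1, 1318 in replicate 2 and 1486 in replicate 3. At day 0 the sums were 23819, 27787 and 14064 CPM for replicates 1 to 3, and at day 1 they were 14526, 16574 and 10862 CPM. Day 3 gave 15797, 17397 and 20531 CPM, and day 8 gave 13547, 13161 and 18631 CPM. As a share of raw counts the members took 0.0988% to 0.195% of the non-regenerating libraries and 1.31% to 2.64% of the others. A single transcript, ENSCINT00000012810, held a large part of these sums. Without it the day 0 sum was 15780 ± 3030 CPM (SD, n = 3), that of day 1 10580 ± 2320, that of day 3 13910 ± 2280 and that of day 8 10280 ± 2460, against 1599 ± 353 in the non-regenerating group.

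**Figure D2:**
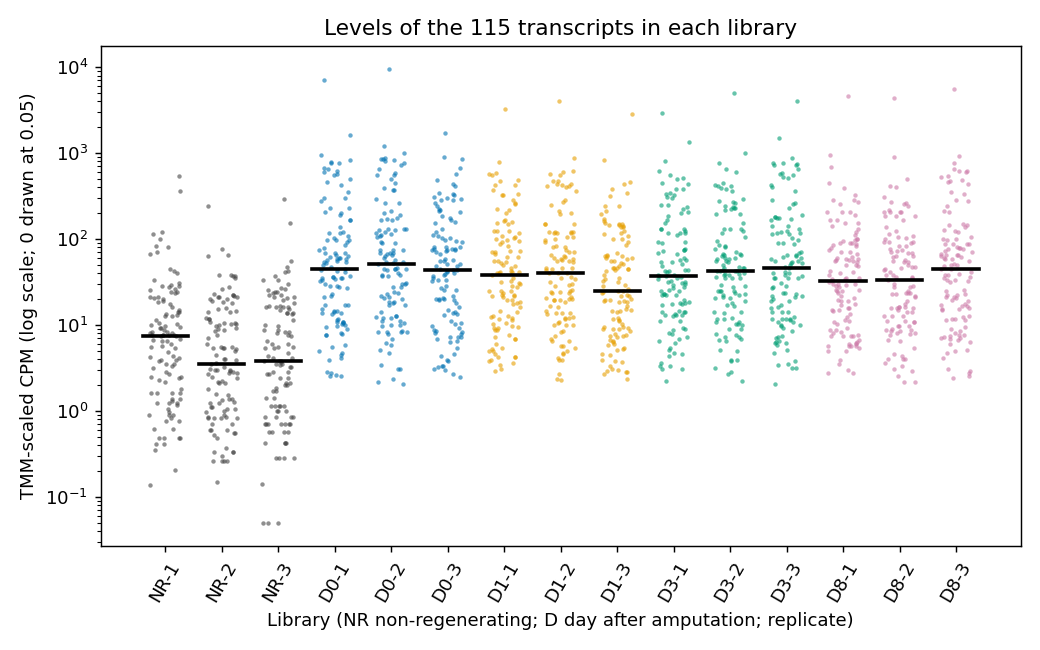
Each dot is a member's TMM-scaled CPM in a library, on a log axis, and black bars are medians over the 115 members. The 3 non-regenerating libraries have medians of 3.49 to 7.40 CPM and the 12 others of 24.8 to 51.2 CPM, with day 1 replicate 3 the lowest of these.

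ENSCINT00000012810 was the most abundant member. It stood at 539, 0.863 and 1.14 CPM in non-regenerating replicates 1, 2 and 3, and at 7032, 9610 and 1699 CPM at day 0. It stood at 3301, 4069 and 2859 CPM at day 1, at 2920, 5061 and 3999 at day 3, and at 4601, 4372 and 5512 at day 8. Replicate 1 of the non-regenerating group was thus far above its other pools, and day 0 replicate 3 was the lowest of all later pools. The next most abundant, ENSCINT00000032603, differed less between groups. It stood at 362, 244 and 297 CPM in the non-regenerating pools and between 768 and 1615 CPM in the 12 others, a ratio of means of 3.52.

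The members furthest from the limit were ENSCINT00000028075 and ENSCINT00000014936, with a ratio of highest non-regenerating to lowest later value of 0.0970 and 0.123. ENSCINT00000028075 stood at 27.6, 0.263 and 0.427 CPM in the non-regenerating pools, from 396, 7 and 3 counts. It stood at 941, 1006 and 285 CPM at day 0, 372, 415 and 381 at day 1, 340, 656 and 741 at day 3, and 687, 506 and 625 at day 8. The lowest later pool was again day 0 replicate 3. ENSCINT00000014936 was more even over the non-regenerating pools, at 18.4, 10.5 and 24.0 CPM, and stood between 196 and 602 CPM in the 12 others.

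The limit fell within a continuous run of values. The members just inside it were ENSCINT00000029370, at a ratio of 0.498 with 3.55 to 4.47 CPM in the non-regenerating pools and 8.97 CPM in its lowest later library, and ENSCINT00000031598, at 0.497. Just outside it were ENSCINT00000031549, at 0.501 with 6.57 to 8.67 CPM against a lowest later value of 17.3 CPM, and ENSCINT00000026658, at 0.501. The ratio was at most 0.25 in 19 members and over 0.4 in 47.

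Non-regenerating replicate 1 decided the size of the set. It was the highest of the 3 non-regenerating pools in 58 of the 115 members (50.4%), compared with 35.7% of the 11568 transcripts at or above 2 CPM; replicate 2 was the highest in 24 and replicate 3 in 33. In 7 members replicate 1 was at least 5 times both other pools (6.09%, compared with 3.07% of the 11568). Replicates 2 and 3 were so in 0 members, near their shares of 0.0864% and 0.354% of the 11568. ENSCINT00000012810 and ENSCINT00000028075 were among the 7.

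When replicate 1 was left out of the choice, 734 transcripts met it, and 115 of these (15.7%) also lay at or below the limit in replicate 1, where 3.23% of the 11568 did. The other 619 were low in both remaining pools and not in replicate 1. Without replicate 2 the choice gave 145 transcripts, of which 79.3% held in replicate 2, and without replicate 3 it gave 208, of which 55.3% held in replicate 3; 9.08% and 11.5% of the 11568 did so. Leaving out a library of days 0 to 8 gave 115 to 146 transcripts, the most without day 1 replicate 3. Of those chosen without a given later library, 79.5% to 100% lay at least 2-fold above the non-regenerating pools in that library too. Among all transcripts at or above 2 CPM in the remaining ones, 2.99% to 8.97% did. The 115 members are among those chosen each time and hold in the left-out library by the rule itself. The remaining libraries also made the choice. All these shares, also those for the non-regenerating pools, therefore describe the rule and are no independent test of the set.

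The scaling also moved the set. With library totals alone 378 transcripts met the rule, 114 of the 115 members among them, and with size factors as in DESeq2 105 did, each of them a member.

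As a description of the choice, the members' median log2 fold change, non-regenerating over later, was -3.06 for day 0, -2.69 for day 1, -2.98 for day 3 and -2.69 for day 8. The medians over all transcripts were between -0.03 and 0.04.

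**Figure D3:**
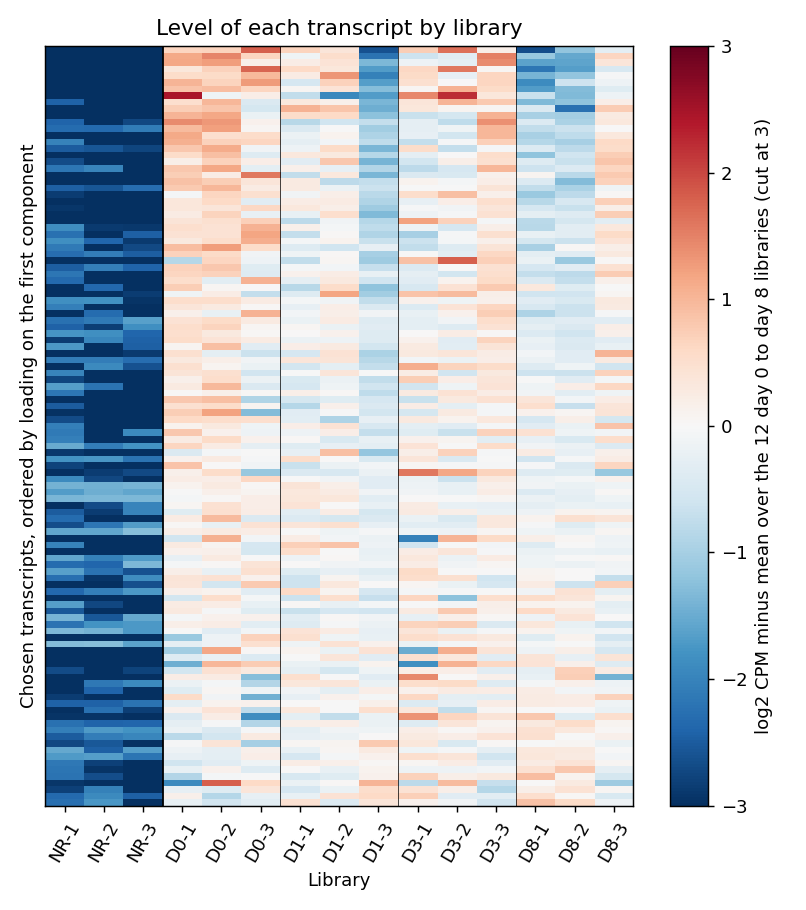
Rows are the 115 members and columns the 15 libraries; colour is log2 CPM minus the member's mean over the 12 libraries of days 0 to 8, with colour saturating at 3 in either direction. All non-regenerating columns are blue by choice, and among the later columns day 1 replicate 3 and day 8 replicates 1 and 2 share blue cells in the upper rows.

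How the members varied among days 0, 1, 3 and 8 is a separate measure, since the rule treats the 12 later libraries alike. Its limit on the lowest of them does disfavour transcripts that vary widely. Of the members, 60 (52.2%) had a highest value under 3 times the lowest over the 12, where 76.5% of the 11568 did, and 6 members (5.22%, compared with 1.54%) reached 10 times or more. Within a day the median coefficient of variation of the members was 24.7% to 27.4%, and that of the 11568 was 17.5% to 20.7%.

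The steadiest member was ENSCINT00000029125, with 69.9, 73.9 and 71.9 CPM at day 0 and 54.1 to 64.5 CPM in the 9 pools of days 1, 3 and 8, against 20.9, 21.0 and 25.5 in the non-regenerating pools. ENSCINT00000015655 followed, between 206 and 298 CPM over the 12 pools. The least steady was ENSCINT00000024732. It stood at 30.2, 30.5 and 66.5 CPM at day 0, 30.5, 24.5 and 3.11 at day 1, 31.9, 60.7 and 21.7 at day 3, and 3.02, 8.45 and 15.6 at day 8. Its low pools were day 1 replicate 3 and the first 2 of day 8. ENSCINT00000032994 ranged 20.8-fold and is described with the tests.

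At day 0 the members tended to be at their highest. The day with the highest mean was day 0 in 60 members, day 3 in 28, day 8 in 16 and day 1 in 11. For the 11568 transcripts day 0 was the highest in 34.1%, where for the members it was 52.2%. The lowest mean fell at day 1 in 47 members (40.9%, compared with 21.7%) and at day 8 in 44 (38.3%, compared with 27.1%). Without replicate 3 of days 1, 3 and 8 the highest mean was at day 0 in 55 members, where 31.9% of the 11568 had it there. The lowest was then at day 8 in 55 members and at day 1 in 30, compared with 33.3% and 17.5% of the 11568.

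By library, the median member lay 0.25, 0.38 and 0.03 above its own 12-library mean on the log2 scale in day 0 replicates 1, 2 and 3. It lay 0.398 below in day 1 replicate 3, where 97 of 115 members (84.3%) were below their mean and 49.3% of the 11568 were. It lay 0.196 and 0.285 below in day 8 replicates 1 and 2, but 0.04 above in day 8 replicate 3. In day 3 replicate 3, which was nearest to day 0 as a whole, it lay 0.21 above. The libraries of day 1 and day 8 thus did not keep to their days, while the medians of the 11568 stayed between -0.04 and 0.05 in all 12 libraries.

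**Figure D4:**
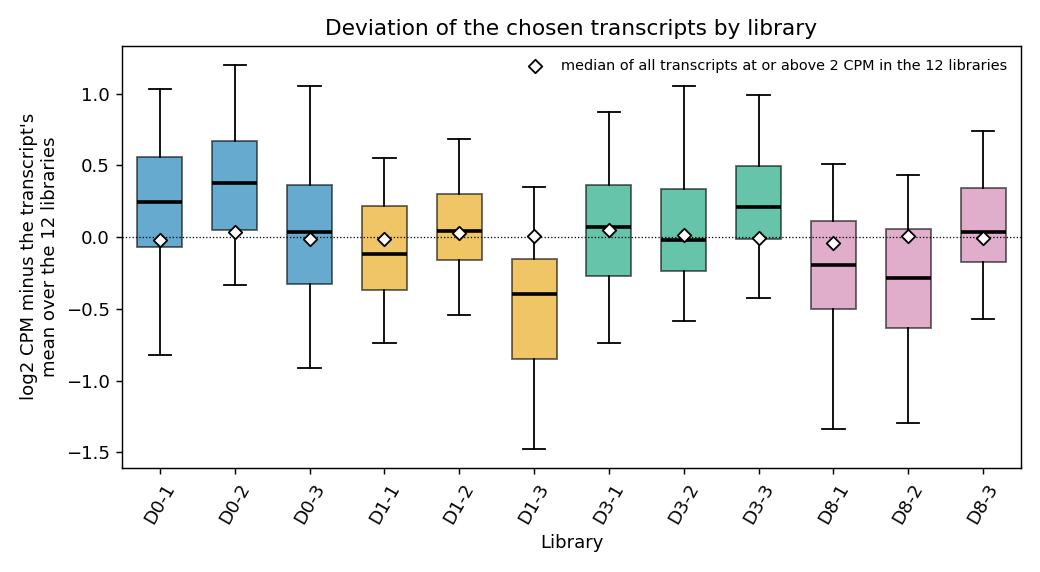
Boxes show the middle 50% of the 115 members' deviations in log2 CPM from their own 12-library means, whiskers the 5th to 95th percentiles, black bars the medians and diamonds the medians of all transcripts at or above 2 CPM. Day 1 replicate 3 and day 8 replicates 1 and 2 lie lowest, while day 0 replicates 1 and 2 and day 3 replicate 3 lie highest.

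The members moved together only in part. The first principal component of their log2 CPM over the 12 later libraries held 44.7% of the variance and the second 12.5%. The correlation with the first was 0.7 or more in 38 members and -0.7 or less in 3. On the first, 89 members loaded towards the day 0 side and 26 the other way. Its scores were 4.96, 4.82 and 2.43 at day 0 and -7.88, -5.97 and -5.95 in day 1 replicate 3 and day 8 replicates 1 and 2, with the other libraries from -0.31 to 3.84. The second set apart day 3 replicates 1 and 2, at 5.16 and 4.37, from the rest, at -2.39 to -0.37.

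The median correlation between 2 members over these 12 libraries was 0.164, and 21.8% of the 6555 pairs exceeded 0.5. Between any 2 of the 11568 the median was 0.005 and 13.2% exceeded 0.5. These values are descriptions, since all pairs share the same 12 libraries and their depths. Only 2 pairs of members reached 0.95. ENSCINT00000014936 and ENSCINT00000034738 had r = 0.978, and ENSCINT00000012021 and ENSCINT00000024732 had r = 0.973. No member was among the 214 transcripts of the table whose counts matched another's within 1% of their totals.

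Day 1 was compared with day 0 to see what the first day after amputation changed. No member passed the test, and 5 of all 15328 transcripts did (0.0326%). DESeq2 called 1 member, where it called 1.13% of all transcripts, limma voom 0, where it called 0.0261%, and the same with library weights 4, where it called 2.21%. At an unadjusted p under 0.05 there were 16 members, all lower at day 1, which is 13.9% of the members. That compares with 10.5% of all transcripts and 11.3% of those at or above 2 CPM in the 12 later libraries. The fold changes leaned one way, with 83 members lower and 32 higher, where 46.0% of all transcripts were lower. Their median log2 fold change was -0.35, with quartiles at -0.70 and 0.05, and that of all transcripts was 0.04. Day 1 lay wholly below day 0 in 26 members and wholly above it in 1, while the shares over all transcripts were 11.5% and 11.6%. Without replicate 3 of days 1, 3 and 8 no member passed in edgeR and no transcript did (0%). The median was then -0.26, and the pools did not overlap in 27 members that were lower and 9 that were higher, compared with 15.0% and 15.7% of all transcripts.

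ENSCINT00000032994 had the lowest p of the lower members. It stood at 49.4, 8.35 and 10.4 CPM at day 0 and 5.46, 2.38 and 2.83 CPM at day 1 (log2 fold change -2.67 ± 0.67 SE, edgeR adjusted p = 0.238). The pools did not overlap, but day 0 replicate 1 stood far above the other day 0 pools. On the higher side ENSCINT00000030840 stood at 14.3, 17.1 and 19.8 CPM at day 0 and 25.02, 23.9 and 22.2 CPM at day 1. The edgeR adjusted p was 0.474 for a log2 fold change of 0.48 ± 0.226.

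At day 3 no member passed against day 0, nor did any transcript (0%). DESeq2 and limma voom also called 0 members, with 0.196% and 0% of all transcripts. Library weights gave 3, with 3.01% of all transcripts. At an unadjusted p under 0.05 there were 6 members, 3 in each direction, which is 5.22% where all transcripts gave 6.80%. The median log2 fold change was -0.12, where that of all transcripts was 0.02, and 73 members (63.5%) were lower, compared with 47.8% of all transcripts. Day 3 lay wholly below day 0 in 10 members and wholly above it in 8, and the shares over all transcripts were 6.94% and 7.24%, so these counts lay near the background. Without replicate 3 of days 1, 3 and 8 the median was -0.22, with 75 members lower, and edgeR called no member and 1.67% of all transcripts. The pools then did not overlap in 31 members that were lower and 18 that were higher, compared with 20.1% and 21.7% of all transcripts. ENSCINT00000005981 had the lowest p, at 17.5, 22.4 and 38.3 CPM against 55.2, 69.5 and 42.6 at day 0 (log2 fold change -1.09 ± 0.372 SE, edgeR adjusted p = 0.729). ENSCINT00000034109 had the lowest p among the higher ones, at 27.8, 17.2 and 14.3 CPM against 8.04, 12.7 and 3.01 at day 0, with an adjusted p of 0.729 in edgeR as well.

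At day 8 no member passed against day 0, and again no transcript did (0%). DESeq2 called 4 members and 2.56% of all transcripts, limma voom 0 members and 0%, and voom weighted by library 47 members and 25.6%. Here 21 members (18.3%) had an unadjusted p under 0.05, of which 18 were lower. The share was 14.3% of all transcripts and 15.7% of those at or above 2 CPM in the 12 later libraries. The median log2 fold change was -0.28, and 87 members were lower where 48.3% of all transcripts were. Day 8 lay wholly below day 0 in 26 members and wholly above in 4, compared with 10.7% and 11.5% of all transcripts. ENSCINT00000007607 had the lowest p among the lower ones. It stood at 227, 263 and 156 CPM at day 0 and at 79.4, 68.4 and 122 CPM at day 8, with no overlap (log2 fold change -1.25 ± 0.28 SE, edgeR adjusted p = 0.168). Its non-regenerating pools held 24.3, 22.2 and 27.0 CPM, and the means of days 1 and 3 lay between, from pools at 159, 118 and 85.3 and at 131, 131 and 175 CPM. ENSCINT00000030840 was the reverse, at 25.4, 28.5 and 22.4 CPM at day 8 (log2 fold change 0.59 ± 0.226 SE, edgeR adjusted p = 0.264).

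The comparison of day 8 with day 0 changed when replicate 3 of days 1, 3 and 8 was left out. Each of these libraries lay nearest to a library of another stage. Leaving them out therefore favours differences between days in all transcripts, not in the members alone. In the fit without replicate 3 of days 1, 3 and 8, 12 members (10.4%) passed in edgeR, all of them lower at day 8. Of the 15546 transcripts then tested, 6.32% were called in either direction and 3.13% were called lower. The median log2 fold change of the members was then -0.40, with 87 lower, and the pools did not overlap in 55 members that were lower and 9 that were higher, compared with 24.9% and 25.2% of all transcripts. ENSCINT00000007607 was among the 12 (log2 fold change -1.55 ± 0.251 SE, edgeR adjusted p = 0.00547). So were ENSCINT00000024732 (-2.90 ± 0.546, edgeR adjusted p = 0.0136) and ENSCINT00000012021 (-2.96 ± 0.509, edgeR adjusted p = 0.00869). Without day 8 replicate 3 alone 2 members passed, both lower, where 0.506% of all transcripts passed.

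**Figure D5:**
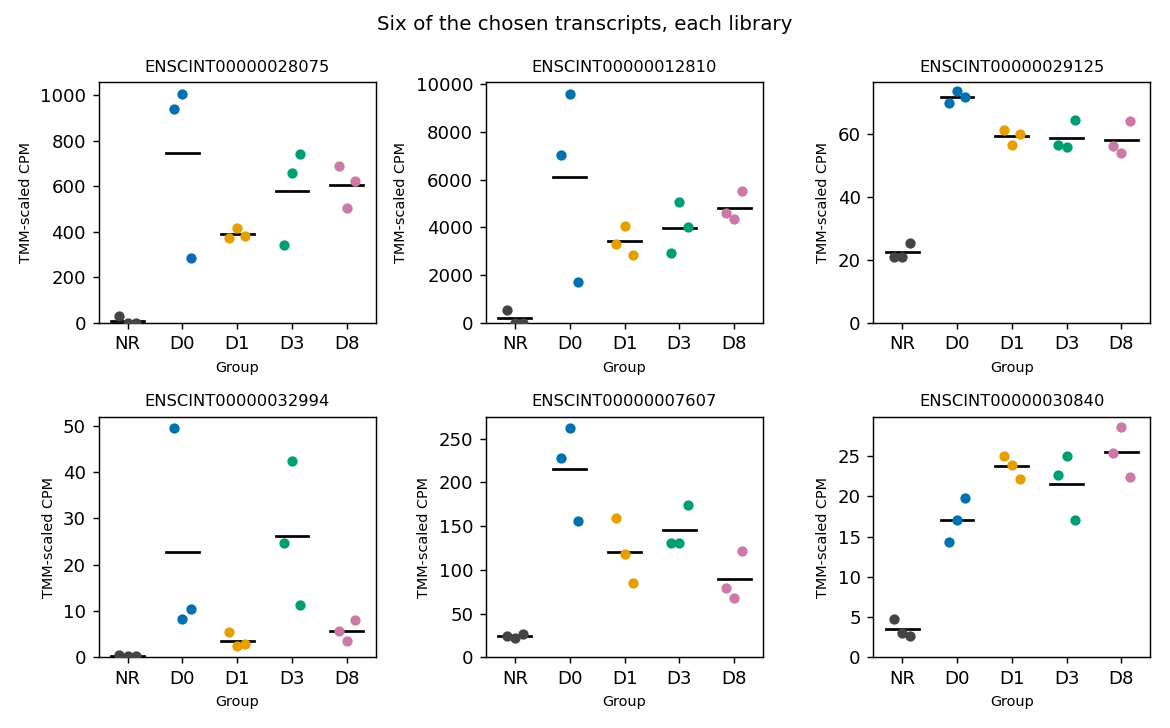
TMM-scaled CPM of 6 members in each library by group, with points for pools, black bars for group means and axes from 0. ENSCINT00000012810 and ENSCINT00000028075 show the high non-regenerating replicate 1 and the low day 0 replicate 3. ENSCINT00000029125 varies least over the 12 libraries of days 0 to 8, with its day 0 pools above those of days 1, 3 and 8. ENSCINT00000032994 and ENSCINT00000007607 have lower means at days 1 and 8 than at day 0, and ENSCINT00000030840 has higher ones.

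Days 3 and 1 were compared to follow the course of regrowth. No member and no transcript passed (0%). DESeq2 called 1 member and 0.072% of all transcripts, limma voom 0 members, and library weights 0 members with 0.00652% of all transcripts. At an unadjusted p under 0.05 there were 9 members, all higher at day 3, which is 7.83% where all transcripts gave 2.99%. Of the 115, 86 were higher at day 3, with a median log2 fold change of 0.25, and day 3 lay wholly above day 1 in 17 members and wholly below it in 0, compared with 4.25% and 4.76% of all transcripts. These values rested on the replicates numbered 3. Without those of days 1, 3 and 8 the median was 0.01, 56 members were lower and the pools did not overlap in 28 members that were higher and 25 that were lower, near the 23.2% and 21.5% of all transcripts. EdgeR again called no member and no transcript (0%). ENSCINT00000032994 had the lowest p, at 24.6, 42.3 and 11.4 CPM at day 3 where day 1 held 5.46, 2.38 and 2.83 (log2 fold change 2.88 ± 0.677 SE, edgeR adjusted p = 0.999). Among the lower ones ENSCINT00000035997 stood at 4.38, 6.46 and 6.16 CPM at day 3 and 10.7, 11.8 and 5.87 at day 1, where the pools overlapped.

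Day 8 against day 3 gave no call among the members or all transcripts (0%). DESeq2 called 0 members and 0.162% of the 11130 transcripts to which it gave an adjusted p. It gave none to 8 members, which could not be called. Limma voom called 0 members and 0% of all transcripts, and library weights gave 4 members and 0.183% of all transcripts. There were 13 members at an unadjusted p under 0.05, all lower at day 8, which is 11.3% where all transcripts gave 2.99%. The median log2 fold change was -0.17, with 83 members lower, and day 8 lay wholly below day 3 in 20 members and wholly above in 1, compared with 4.60% and 3.34% of all transcripts. Without replicate 3 of days 1, 3 and 8 the median was -0.22, with 78 lower, and edgeR called no member and 0.00643% of all transcripts. The pools then did not overlap in 51 members that were lower and 10 that were higher, compared with 23.2% and 19.2%. ENSCINT00000019588 had the lowest p. It stood at 117, 230 and 167 CPM at day 3 and 35.01, 45.1 and 87.0 CPM at day 8 (log2 fold change -1.62 ± 0.428 SE, edgeR adjusted p = 1); at day 0 it held 204, 213 and 176 CPM and in the non-regenerating pools 6.49, 3.30 and 5.54. ENSCINT00000012434 had the lowest p on the higher side, at 57.9, 74.3 and 35.5 CPM at day 8 against 38.0, 38.1 and 39.9 at day 3, where the pools overlapped.

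A single test over days 0, 1, 3 and 8 called no member and no transcript (0%) in edgeR. DESeq2 called 3 members and 1.39% of all transcripts, limma voom 0 members and 0%, and library weights 32 members and 12.7%. At an unadjusted p under 0.05 it gave 19 members, 16.5% of them, where all transcripts gave 7.34%. ENSCINT00000032994 had the lowest p, 0.00153, with an adjusted p of 0.499 in edgeR. Without replicate 3 of days 1, 3 and 8 it called 8 members, where 3.03% of all transcripts were called.

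With the third replicate left out in every group, the non-regenerating group and day 0 included, edgeR called 2 members for day 1 against day 0 (1.74%), where it called 1.06% of all transcripts. For day 3 against day 0 it called 10 members (8.70%), compared with 5.42%, and for day 8 against day 0 26 members (22.6%), compared with 13.0%. Of these, 1 member was higher, at day 8. It called 1 member for day 3 against day 1, where 0.602% of all transcripts were called, and 3 for day 8 against day 3, where 0.298% were. Over the 4 days it called 15 members (13.0%), compared with 8.02%.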

How the data were processed

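The authors deposited raw read counts per Ensembl transcript for 15 libraries, read on an Ion Proton per the labels' protocols. TopHat, Bowtie and HTSeq appear in the submitters' processing notes. Their versions and settings, the genome build, the annotation and strand handling were not given in the sources used here, so overlapping and antisense transcripts cannot be told apart. Each library pools 5 siphon samples, and p-values measure only the spread between pools.

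The members, lists and tests were chosen with earlier results of these data known. Levels are CPM scaled by TMM over all rows in edgeR 4.0.16 (R 4.3.3). Tests used the 15328 transcripts past edgeR's expression filter (minimum count 10) and a quasi-likelihood fit with a mean per group over all 15 libraries. They were two-sided, with Benjamini-Hochberg adjustment over those transcripts and a threshold of 0.05. The procedure was run on simulated counts with the same spread for all transcripts and no libraries made to resemble another stage. That run does not show how well differences are detected in these data. Standard errors were derived from the F statistics. Log2 CPM used a prior count of 0.5. Leaving a library out of the rule kept the scaling. Depth was 7039611 to 33413013 counts a library; counts are reads, not molecules.

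Named transcripts are the members with the smallest ratio, the highest mean, the smallest or largest range, those at the limit, and, since no member passed between days, the member with the lowest p in each direction. ENSCINT00000012021 and ENSCINT00000034738, and the use of ENSCINT00000024732 at day 8, were chosen after their values were seen. Alternatives were other scalings, no filter, DESeq2 1.42.0, limma 3.58.1 voom with and without library weights, the 12 later libraries alone, the replicate number as a block, and fits without each library, without replicate 3 of days 1, 3 and 8, and without all libraries numbered 3. DESeq2 gave an adjusted p to 11130 to 15280 transcripts, depending on the comparison, and its shares of all transcripts are shares of those. The counts of non-overlap and of highest and lowest days without replicate 3 were added after the data were seen.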

Additional observations from a re-analysis of the deposited data

How the results depend on the processing

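The number of transcripts meeting the rule was 115; it became 378 with library totals alone, 40 with a factor of 3 and 76 with a floor of 10 CPM, and ran from 115 to 734 when each library was left out, the highest without non-regenerating replicate 1 and next 208 without its replicate 3. Between days the main edgeR fit called 0 members. DESeq2 called 1 for day 1 against day 0 (1.13% of all transcripts) and 4 for day 8 against day 0 (2.56%). It called 1 for day 3 against day 1 (0.072%) and 3 over the 4 days (1.39%). Limma voom with library weights called 4, 3 and 47 for days 1, 3 and 8 against day 0 (2.21%, 3.01% and 25.6% of all transcripts). It called 4 for day 8 against day 3 (0.183%) and 32 over the 4 days (12.7%). Without replicate 3 of days 1, 3 and 8, edgeR called 12 members for day 8 against day 0 (6.32% of all transcripts). Over the 4 days edgeR then called 8 members (3.03%). Without all libraries numbered 3 it called 2, 10 and 26 for days 1, 3 and 8 against day 0 (1.06%, 5.42% and 13.0% of all transcripts), 1 for day 3 against day 1 (0.602%), 3 for day 8 against day 3 (0.298%) and 15 over the 4 days (8.02%). Leaving out single libraries gave 0 to 2 for day 8 against day 0, the 2 without day 8 replicate 3, and 0 in the other comparisons. The share of all transcripts was then at most 0.506% for day 8 against day 0 and at most 0.0512% in the others. The causes were not tested. Other scalings, no filter, limma voom and the 12 later libraries alone also called 0 members. Their share of all transcripts was 0% to 0.0326% for day 1 against day 0 and 0% in the other comparisons.

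The replicate block called 0 members and 0% of all transcripts in each comparison between days. Of 30 pairs of libraries with the same number in different groups, 5 had deviations that correlated over 0.1, and the range was -0.592 to 0.301. Pairs with different numbers are not given beside them, so these values cannot tell whether the numbers pair the samples. Library totals alone moved the median log2 fold change of all transcripts for day 1 against day 0 from 0.04 to 0.20, and that of the members from -0.35 to -0.19. The 8 transcripts with the lowest p in a comparison were followed over 10 pairs of transcript and comparison, the other named transcripts were not. They kept the sign of their log2 fold changes in each of 25 alternatives. They were picked from these same data, and many alternatives left out a library of neither day compared, so a kept sign is no independent support. ENSCINT00000007607 passed at day 8 against day 0 in 5 (adjusted p of 0.000608 to 0.641) and ENSCINT00000030840 in 2 (0.0048 to 0.715). ENSCINT00000032994 passed in 1 at day 1 against day 0 (0.00693 to 0.734) and in 1 at day 3 against day 1 (0.0198 to 1), ENSCINT00000005981 in 1 at day 3 against day 0 (0.029 to 1) and ENSCINT00000019588 in 1 at day 8 against day 3 (0.0051 to 1). The other 4 pairs passed in 0.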
